A study of Homo sapiens with 4 samples.

Results

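Thiol antioxidant and NADPH defence genes are the genes of the glutathione, thioredoxin, peroxiredoxin and superoxide systems together with their controller NRF2. They were taken as a list of 39 gene symbols, and every probe whose platform annotation carried one of these symbols was used. Of the 39, 38 were measured, out of 19090 genes on the array, and PRDX5 had no probe with its symbol. The 38 members were read by 53 probes, 25 members by 1 probe and 13 by several. The arrays were 2 of Huh7 cells stably carrying a short hairpin RNA (shRNA) against ACOT12, called shACOT12, and 2 of Huh7 cells stably carrying a scramble shRNA, the control. Huh7 is an established human hepatocellular carcinoma line, both groups had been selected with puromycin for 1 week, and ACOT12 encodes a cytosolic acetyl-CoA thioesterase. The comparison asks which genes respond to ACOT12 knockdown. Whether each group was a clone or a pool, and how many hairpins were used, is not given in the sources used here. Separate cultures for the 2 arrays of each group are not stated, and the p-values then reflect array-to-array spread alone, possibly technical. The RNA is from bulk cultures, so a gene's lower level in every cell and fewer cells expressing it cannot be told apart.

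Cells remove peroxides with a pair of thiol systems. Glutathione, made from cysteine and kept reduced by glutathione reductase, feeds the glutathione peroxidases and glutaredoxins, while thioredoxin, kept reduced by thioredoxin reductase, feeds the peroxiredoxins and methionine sulfoxide reductases. Both reductases draw their electrons from NADPH. The transcription factor NRF2 is held low by KEAP1 and, when released, switches on many of these genes through the antioxidant response element in their regulatory DNA. Hepatocytes express much of this machinery as part of their detoxifying role.

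No member passed the test between shACOT12 and scramble cells. Limma gave 0 of 38 members an adjusted p under 0.05, and 1 gene in all, 0.00524% of the genes tested. At an unadjusted p under 0.05 limma again gave 0 members, against 1.76% of all genes. Every measured difference was under 2-fold: the log2 fold changes, shACOT12 minus scramble throughout, ran from -0.59 for TXNRD1 to 0.30 for GPX7. Of the members 20 had lower and 18 higher values in shACOT12 cells, and 48.6% of all genes were lower. The median log2 fold change was -0.01 over the members and 0.01 over all genes. The members with the lowest fold changes were TXNRD1, PGD, GPX4, GPX2, GSR, CAT and GCLM, between -0.59 and -0.36. With 2 arrays per group an interval is wide. The 95% confidence interval of the log2 fold change lay within -1 and 1, which means under 2-fold either way, for 25 of 38 members, against 59.7% of all genes and 67.3% of genes at or above the median of all genes. For the other 13, among them the 7 named above, a 2-fold difference lay inside the interval.

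**Figure D1:**
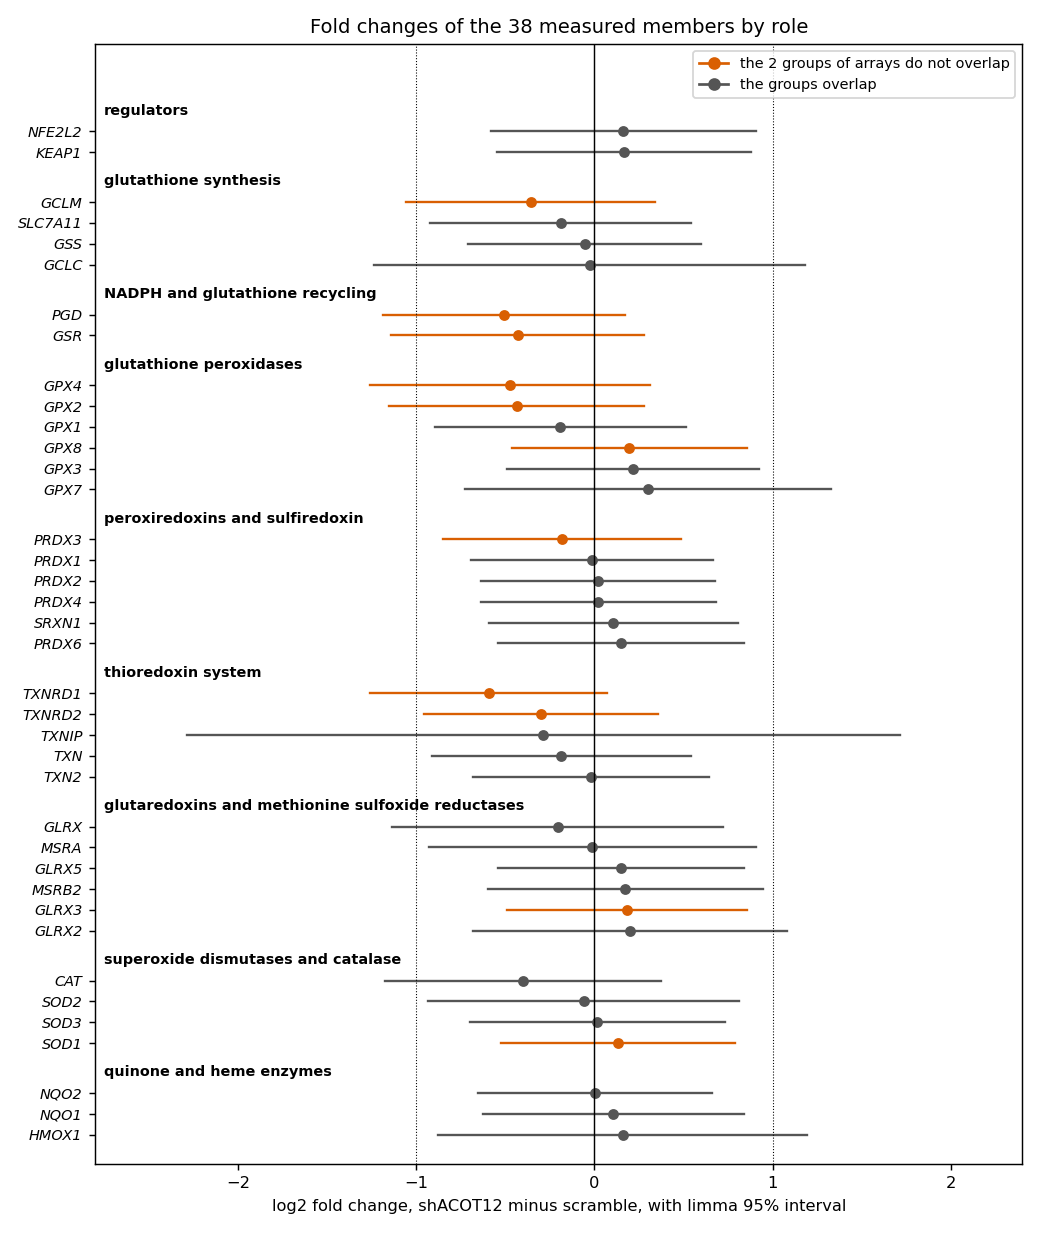
Log2 fold change, shACOT12 minus scramble, of the 38 measured members (points) with limma's 95% confidence interval (lines), grouped by role; dotted lines mark -1 and 1. All intervals cross 0, TXNRD1 lies lowest at -0.59, and orange marks the 11 members whose 2 groups of arrays do not overlap.

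The targeted gene was checked first. ACOT12 had log2 values of 7.58 and 7.37 in shACOT12 cells, against 8.28 and 7.47 in scramble cells. Its values lay below the median of all genes and the groups overlapped. The log2 fold change was -0.40 (SE 0.35, limma adjusted p = 1), so a lower ACOT12 mRNA was not detected. When scramble replicate 1 was left out ACOT12 stood at 0.0039, and when scramble replicate 2 was left out at -0.80. Median intensities were 327 and 451 on shACOT12 replicates 1 and 2 and 377 and 395 on scramble replicates 1 and 2. Of 11 hepatocyte markers 9 were measured, all at or above the median of all genes. The markers of other cell types at or above that median were 1 of 5 measured for leukocytes (LYZ), 0 of 5 for endothelium and 2 of 6 for fibroblasts (COL1A1 and PDGFRA). AFP averaged 17.13 ± 0.15 in shACOT12 and 17.91 ± 0.03 in scramble cells, and ALB 17.69 ± 0.07 and 17.19 ± 0.01 in the same order (SD, n = 2 each; limma adjusted p = 1 for both). The part of such differences in the values below was not tested.

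The promoters of the members are shown where they hold the core of the antioxidant response element, the sequence through which NRF2 is known to act. RefSeq promoters (GRCh38.p14, 250 bases before to 50 after a gene's start) were found for 28 of the 38 members. The motif searched was TGACNNNGC on both strands. It was present for 5 of these 28 members (17.9%), namely TXNRD1, PGD, GPX2, GCLM and KEAP1. Of all 27305 genes with a promoter in the table, 16.1% had it, and of all 35116 promoters, 13.3%. The share of members was thus close to that of all genes, and no match in this window says nothing on elements farther away. TXNRD1, PGD, GPX2 and GCLM are printed because they are also among the 7 members with the lowest fold changes. The printed runs were thus picked by fold change. For GPX4, GSR and CAT, also among these 7, no match was found. Whether each of them had a promoter entry is not given here. KEAP1, at a log2 fold change of 0.17, is not printed, and its matches begin 54 and 31 bases before its start. Each run gives the 250 bases before the gene's start, 5′ to 3′ in the direction of the gene, with the motif or its reverse complement in capitals.
TXNRD1: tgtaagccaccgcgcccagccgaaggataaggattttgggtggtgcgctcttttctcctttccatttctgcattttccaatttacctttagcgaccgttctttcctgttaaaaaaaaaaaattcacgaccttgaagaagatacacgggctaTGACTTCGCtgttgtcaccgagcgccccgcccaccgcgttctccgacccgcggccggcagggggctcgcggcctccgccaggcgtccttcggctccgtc
PGD: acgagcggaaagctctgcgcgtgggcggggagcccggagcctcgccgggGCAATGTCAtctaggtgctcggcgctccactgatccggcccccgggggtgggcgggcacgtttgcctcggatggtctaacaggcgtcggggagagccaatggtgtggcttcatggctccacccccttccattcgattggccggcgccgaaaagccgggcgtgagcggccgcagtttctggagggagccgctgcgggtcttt
GPX2: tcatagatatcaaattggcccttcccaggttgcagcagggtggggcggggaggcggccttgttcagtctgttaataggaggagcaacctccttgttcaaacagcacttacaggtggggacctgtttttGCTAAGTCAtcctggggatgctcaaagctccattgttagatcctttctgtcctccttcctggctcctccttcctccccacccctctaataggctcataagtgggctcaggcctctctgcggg
GCLM: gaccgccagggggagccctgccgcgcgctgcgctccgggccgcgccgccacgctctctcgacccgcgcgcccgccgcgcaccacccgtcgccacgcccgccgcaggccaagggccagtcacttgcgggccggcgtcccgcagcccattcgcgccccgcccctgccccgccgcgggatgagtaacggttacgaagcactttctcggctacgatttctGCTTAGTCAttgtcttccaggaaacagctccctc
The TXNRD1 run is chr12:104215529-104215778 on the plus strand, the upstream of 2 starts listed for the gene, and its motif begins 99 bases before that start. A further match on the other strand crosses the start and is not marked, and the promoter of the second start held 1 match. The PGD run is chr1:10398814-10399063 on the plus strand, with the motif on the opposite strand beginning 201 bases before the start. The GPX2 run is chr14:64942746-64942995 on the minus strand, with the motif in reverse complement 122 bases before the start. The GCLM run is chr1:93909431-93909680 on the minus strand, with the motif in reverse complement 34 bases before the start. These matches describe the sequence and are not binding sites measured here.

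The regulators differed between the groups by less than their standard errors. NFE2L2, which encodes NRF2, had log2 values of 15.88 and 15.38 in shACOT12 cells, against 15.61 and 15.33 in scramble cells. KEAP1, the adaptor that marks NRF2 for degradation, had 12.06 and 11.61 in shACOT12 cells, against 11.74 and 11.60 in scramble cells. For both genes the groups overlapped and replicate 1 was the higher array of each group. The log2 fold change of NFE2L2 was 0.16 (SE 0.31, 95% interval -0.58 to 0.90), with 0.10 from its second probe, and that of KEAP1 was 0.17 (SE 0.30, 95% interval -0.55 to 0.88). Limma's adjusted p was 1 for both, as for every member in this comparison. NRF2 is controlled mainly through protein stability, which mRNA arrays do not read. Without shACOT12 replicate 1 the log2 fold changes were -0.085 for NFE2L2 and -0.059 for KEAP1.

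All 4 genes of glutathione synthesis had lower values in shACOT12 cells, none past the test, and 3 of 4 did under each of the 3 other scalings tried, where GCLC turned. Without 1 array 2 to 4 were lower. GCLM encodes the modifier subunit of glutamate-cysteine ligase, the rate-limiting enzyme of the pathway. It had log2 values of 13.80 and 13.49 in shACOT12 cells, against 14.14 and 13.86 in scramble cells. Both shACOT12 arrays lay below both scramble arrays, and the log2 fold change was -0.36 (SE 0.29). It was -0.51 without shACOT12 replicate 1, -0.20 without shACOT12 replicate 2, -0.22 without scramble replicate 1 and -0.50 without scramble replicate 2. GCLC encodes the catalytic subunit and did not follow GCLM: it had 10.32 and 9.22 in shACOT12 cells, against 9.24 and 10.35 in scramble cells. The arrays of each group thus differed by about as much, in opposite order, and the log2 fold change was -0.03 (SE 0.51). SLC7A11, the cystine importer, stood at -0.19 (SE 0.31), with shACOT12 arrays at 12.21 and 12.26 and scramble arrays at 12.16 and 12.69. A second, dim probe of SLC7A11 gave 0.58. GSS, glutathione synthetase, stood at -0.06 (SE 0.27).

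PGD and GSR, the members grouped as NADPH supply and glutathione recycling, both had lower values in shACOT12 cells without overlap, as did 10% of all genes and 12.8% of genes at or above the median. PGD encodes phosphogluconate dehydrogenase, an NADPH-producing enzyme of the pentose phosphate pathway. Its log2 values were 11.85 and 11.56 in shACOT12 cells, against 12.14 and 12.29 in scramble cells, a log2 fold change of -0.51 (SE 0.28, 95% interval -1.18 to 0.17). GSR encodes glutathione reductase, which uses that NADPH to reduce glutathione disulfide. It had 12.12 and 12.13 in shACOT12 cells, against 12.33 and 12.79 in scramble cells, a log2 fold change of -0.43 (SE 0.30). The shACOT12 arrays of GSR were close together, and the gap to scramble replicate 2 was the larger one. Leaving out scramble replicate 2 gave -0.20 for GSR and -0.44 for PGD, and leaving out scramble replicate 1 gave -0.66 and -0.58 for these genes.

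Within the thioredoxin system all 5 members had lower values in shACOT12 cells, none past the test, although TXN2 turned without scaling and with 75th percentile scaling. Without 1 array 2 to 5 of them were lower. TXNRD1 encodes the cytosolic thioredoxin reductase, a selenoprotein and a known NRF2 target, and was the member with the smallest p. Its log2 values were 14.12 and 13.96 in shACOT12 cells, against 14.52 and 14.74 in scramble cells. Both shACOT12 arrays lay below both scramble arrays, and the gap between the nearest arrays of the groups was wider than the gap within either group. The log2 fold change was -0.59, a 1.51-fold lower level (SE 0.28, 95% interval -1.26 to 0.07, unadjusted p = 0.0729 and adjusted p = 1 by limma). Without 1 array it ranged from -0.71 to -0.48. TXNRD2, the mitochondrial reductase, had 9.53 and 9.68 in shACOT12 cells, against 9.84 and 9.97 in scramble cells. Its log2 fold change was -0.30 (SE 0.27), while its second, dimmer probe gave 0.25, so the 2 probes differed in sign. With the mean of the probes TXNRD2 stood at -0.025. In all, 7 of the 13 members with several probes had probes of differing sign (PRDX1, PRDX2, PRDX3, PRDX4, SLC7A11, SOD2 and TXNRD2). Their substrates stood nearer to 0: TXN, cytosolic thioredoxin, at -0.19 (SE 0.30; second probe -0.12) and TXN2, the mitochondrial form, at -0.02 (SE 0.28).

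TXNIP was the most variable member. It encodes the thioredoxin-interacting protein, whose transcription follows glucose. It had log2 values of 12.06 and 12.90 in shACOT12 cells, against 11.38 and 14.16 in scramble cells. The 2 scramble arrays enclosed both shACOT12 arrays, and their SD of 1.97 was the largest among the 38 members in either group. The log2 fold change of -0.29 (SE 0.84, 95% interval -2.29 to 1.72) was smaller than the SD of either group. It was -1.68 without scramble replicate 1, 1.11 without scramble replicate 2, 0.13 without shACOT12 replicate 1 and -0.70 without shACOT12 replicate 2, so the direction depended on single arrays.

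**Figure D2:**
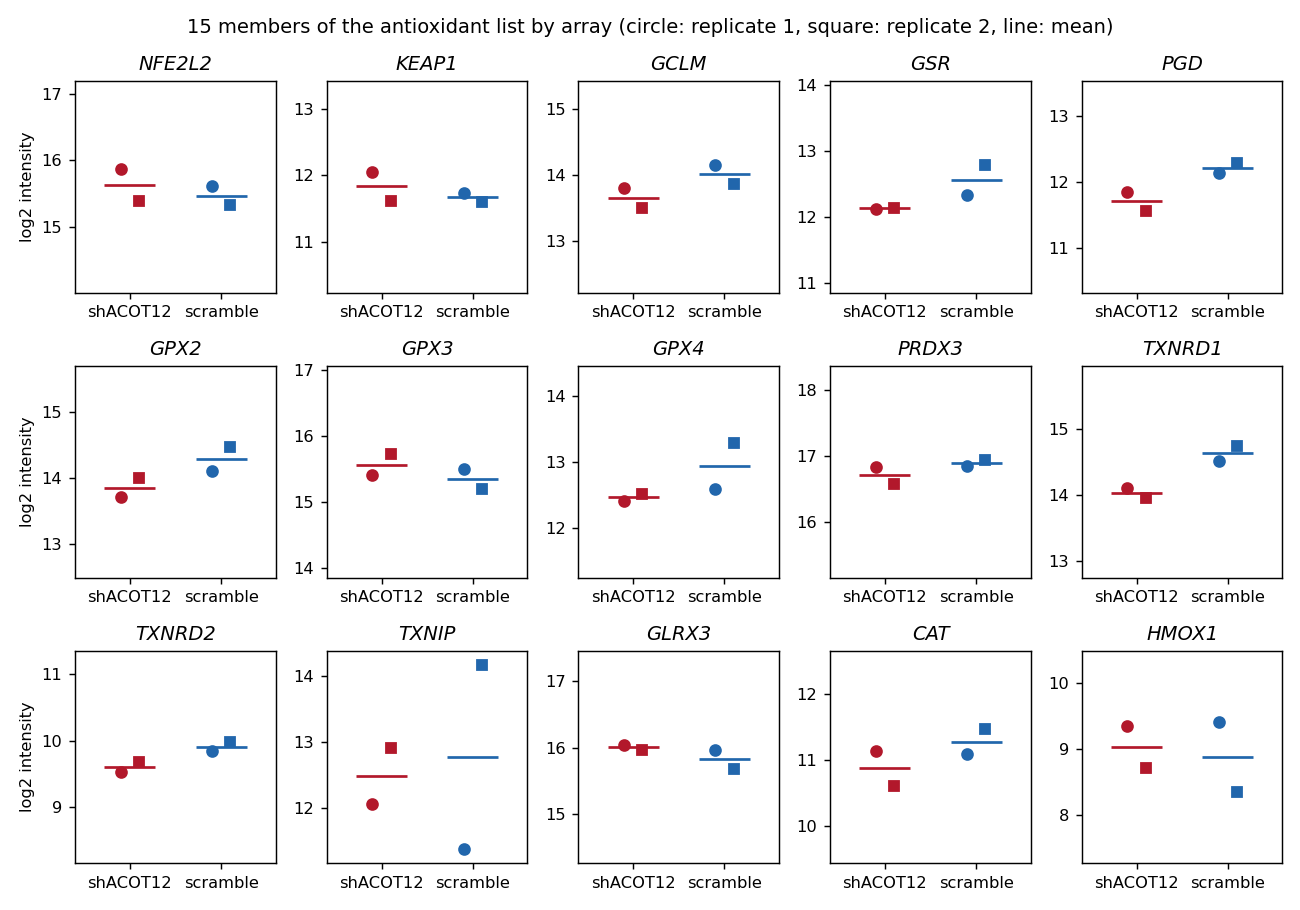
Log2 intensity of 15 members on each array, shACOT12 left and scramble right; circles are replicate 1, squares replicate 2, lines the group means, and every panel spans the same log2 range. TXNRD1 and PGD show 2 separate pairs of points, while the scramble arrays of TXNIP lie at 11.38 and 14.16, on both sides of the shACOT12 arrays.

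Of the 6 glutathione peroxidases, 3 had lower and 3 higher values in shACOT12 cells. GPX4, which reduces lipid hydroperoxides in membranes, had log2 values of 12.42 and 12.52 in shACOT12 cells, against 12.60 and 13.29 in scramble cells. GPX2, an NRF2-responsive cytosolic form best known from gut epithelium, had 13.70 and 13.99 in shACOT12 cells, against 14.10 and 14.47 in scramble cells. The groups did not overlap for either gene, although GPX4 on scramble replicate 1 lay close to the shACOT12 arrays. The log2 fold changes were -0.47 for GPX4 (SE 0.33) and -0.44 for GPX2 (SE 0.30). Without scramble replicate 2 they were -0.13 and -0.25, and without scramble replicate 1 -0.81 and -0.62. GPX3, the secreted plasma form, had 15.41 and 15.72 in shACOT12 cells, against 15.50 and 15.19 in scramble cells, a log2 fold change of 0.22 (SE 0.30) with overlapping groups. GPX1, the main cytosolic form, stood at -0.19 (SE 0.30). GPX7 and GPX8, which act in the endoplasmic reticulum, were below the median of all genes and stood at 0.30 (SE 0.43) and 0.19 (SE 0.28). The groups of GPX8 did not overlap either, with higher values in shACOT12 cells. Over all genes 10% were apart and lower and 11.5% apart and higher.

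The peroxiredoxins, thiol enzymes that remove most cellular hydrogen peroxide, were, by their brightest probes, the role group nearest to 0 on the median absolute difference, 0.06 over 6 members against 0.16 over all genes. PRDX3, the mitochondrial peroxiredoxin, had log2 values of 16.83 and 16.58 in shACOT12 cells, against 16.84 and 16.93 in scramble cells. The groups did not overlap, but shACOT12 replicate 1 and scramble replicate 1 were nearly equal, and the log2 fold change was -0.18 (SE 0.28). The second probe of PRDX3 gave 0.13. The other probes of PRDX2 gave -0.13, -0.38 and -0.10 (-0.15 with the mean of its probes), that of PRDX4 gave -0.11 and that of PRDX1, which was dim, gave 0.58. PRDX1 stood at -0.02, PRDX2 at 0.02, PRDX4 of the secretory pathway at 0.02 and PRDX6 at 0.15, with SE between 0.27 and 0.29. SRXN1, sulfiredoxin, which restores overoxidized peroxiredoxins, stood at 0.11 (SE 0.29). The 95% intervals of all 6 lay within -1 and 1.

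Among the glutaredoxins and methionine sulfoxide reductases, 4 of 6 had higher and 2 lower values in shACOT12 cells. GLRX3, a cytosolic glutaredoxin of iron-sulfur handling, had log2 values of 16.04 and 15.97 in shACOT12 cells, against 15.97 and 15.67 in scramble cells. The groups were apart only by a margin that vanishes at this rounding, and the log2 fold change was 0.18 (SE 0.28). GLRX, the main cytosolic glutaredoxin, stood at -0.21 (SE 0.39), GLRX2 at 0.20 (SE 0.37), GLRX5, needed for mitochondrial iron-sulfur clusters, at 0.15 (SE 0.29), and the methionine sulfoxide reductases MSRA and MSRB2 at -0.01 (SE 0.38) and 0.17 (SE 0.32). MSRA, GLRX and GLRX2 each had scramble arrays farther apart than 0.8 on the log2 scale, with scramble replicate 2 low for MSRA and GLRX2 and high for GLRX.

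The enzymes that remove superoxide and hydrogen peroxide without NADPH-linked thiols were close to 0 except catalase. CAT, the peroxisomal catalase, had log2 values of 11.15 and 10.62 in shACOT12 cells, against 11.09 and 11.48 in scramble cells. Its groups overlapped, since shACOT12 replicate 1 lay above scramble replicate 1, and the log2 fold change was -0.40 (SE 0.32, -0.14 without shACOT12 replicate 2 and -0.66 without shACOT12 replicate 1). SOD1, the cytosolic superoxide dismutase, stood at 0.13 (SE 0.27), SOD2, the mitochondrial form, at -0.06 (SE 0.37) and SOD3, the extracellular form, at 0.02 (SE 0.30). SOD1 was apart by a small gap, with arrays at 18.02 and 18.05 in shACOT12 cells and at 18.00 and 17.80 in scramble cells.

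The 3 quinone and heme enzymes, of which NQO1 and HMOX1 are often used as readouts of NRF2, had higher values in shACOT12 cells, with NQO2 at 0 to 2 decimals and lower under each of the 3 other scalings. HMOX1, heme oxygenase 1, had log2 values of 9.35 and 8.72 in shACOT12 cells, against 9.41 and 8.34 in scramble cells. Replicate 1 was the higher array in both groups, and the log2 fold change was 0.16 (SE 0.43, -0.16 without shACOT12 replicate 1 and -0.38 without scramble replicate 2). The probe of NQO1, a quinone reductase, was dim on every array, with deposited intensities of 48.5 and 114 in shACOT12 cells, against 75.3 and 61.4 in scramble cells. Only 15.8% of genes had a mean at or below it, so its log2 fold change of 0.11 (SE 0.31) rests on values near the bottom of the scale. NQO2, a related reductase, stood at 0.00 (SE 0.27).

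Both shACOT12 arrays lay on the same side of both scramble arrays for 11 of 38 members (28.9%), against 21.5% of all genes. Of these 11, 8 were lower in shACOT12 cells (GCLM, GSR, PGD, GPX2, GPX4, PRDX3, TXNRD1 and TXNRD2) and 3 higher (GPX8, GLRX3 and SOD1), where 10% of all genes were apart and lower and 11.5% apart and higher. Most members were bright, 34 of 38 at or above the median, and of all genes that bright 24.2% were apart and 12.8% apart and lower. Scramble replicate 2 held the highest of the 4 values for 17 of 38 members (44.7%) and the lowest for 13 (34.2%), against 31.8% and 31.7% of the genes at or above the median. The deviations of the members from their own means had an SD of 0.24 and 0.20 on shACOT12 replicates 1 and 2 and of 0.30 and 0.41 on scramble replicates 1 and 2. TXNIP, at 11.38 and 14.16 on the scramble arrays, widened both scramble SDs, and SDs without it were not computed. Without scramble replicate 2 the log2 fold changes were between -0.50 and -0.13 for TXNRD1, PGD, GPX4, GPX2, GSR, CAT and GCLM, against -0.59 to -0.36 with it. GCLM moved the other way, from -0.36 to -0.50. Without shACOT12 replicate 2 these genes ranged from -0.58 to -0.14, and without shACOT12 replicate 1 from -0.67 to -0.29. Without scramble replicate 1 they ranged from -0.81 to -0.22.

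**Figure D3:**
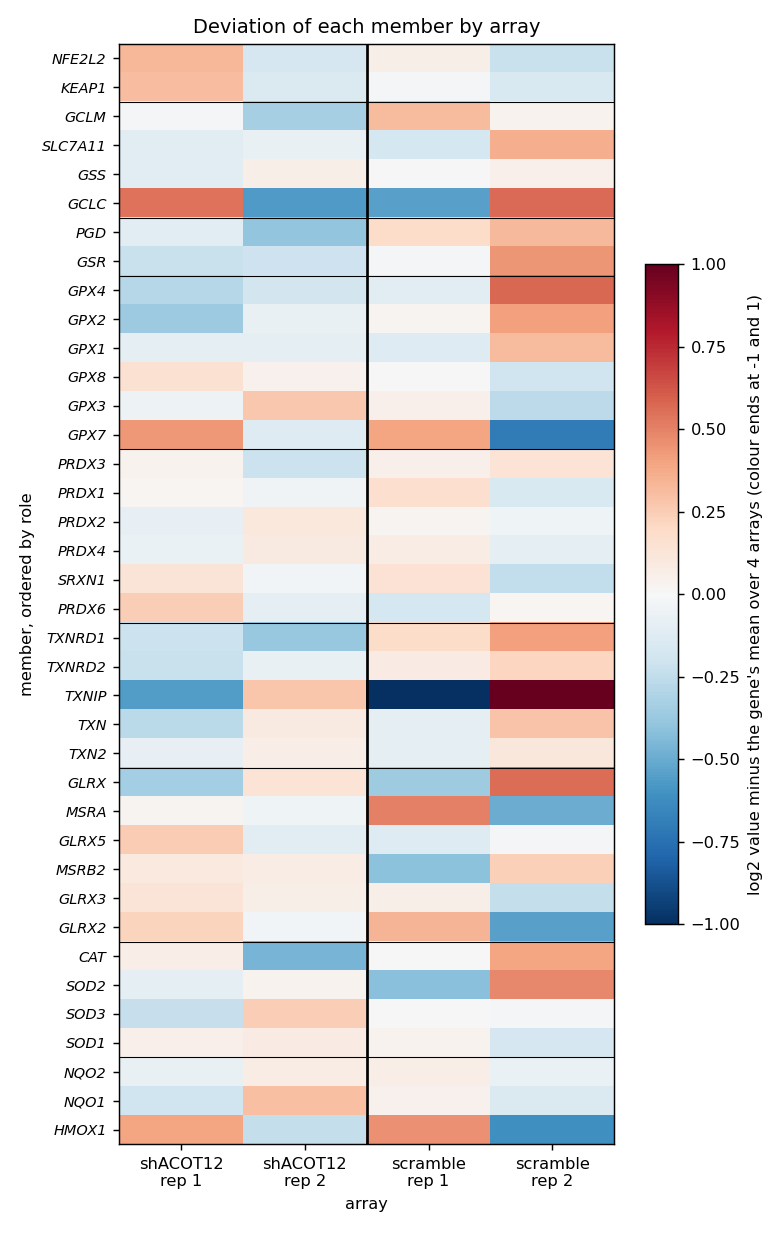
Log2 value of each member minus its own mean over the 4 arrays, arrays across (shACOT12 left, scramble right) and members down, ordered by role; red is above and blue below the mean, and TXNIP on the scramble arrays goes past the ends of the colour scale. Scramble replicate 2 has the strongest colours, high for GPX4, GSR and GLRX and low for GPX7, HMOX1 and GLRX2.

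The members were also grouped by NRF2 control, selenocysteine and place in the cell, groups that share members. Among 12 members that are established NRF2 targets in human cells, 9 were lower in shACOT12 cells and 5 of these without overlap (TXNRD1, PGD, GPX2, GSR and GCLM), and their median stood at -0.19 on the log2 scale (7 to 8 lower under other scalings). That median was -0.42 without scramble replicate 1 and -0.091 when probes were averaged per gene, where 7 were lower. Over all genes 10% were apart and lower, and 12.8% of genes at or above the median. SRXN1, NQO1 and HMOX1 were the 3 higher ones. Of the 6 selenoproteins, enzymes that carry selenocysteine at the active site, 5 were lower (GPX1, GPX2, GPX4, TXNRD1 and TXNRD2) and 4 of them without overlap, with a median of -0.37. Without scramble replicate 2 the median was -0.18 with 4 lower, and without 1 array it ranged from -0.52 to -0.18. Scramble replicate 2 was the highest array for all 5 of these. The 7 mitochondrial members were lower in 4 cases with a median of -0.02, and all 5 members of the secretory pathway were higher with a median of 0.19, 1 of them without overlap (GPX8) and 1 turned in the unscaled values (SOD3) and 1 when probes were averaged (PRDX4, -0.043). The secretory median was 0.014 without scramble replicate 2 and 0.059 without shACOT12 replicate 2, with 2 of 5 lower in each case. GPX7 and GPX8 of this group lay below the median of all genes. With the dimmest 30% of genes left out, the secretory median was 0.12 over 4 members. The count of lower mitochondrial members was 2 to 4 under other scalings. No member of these groups passed limma's threshold.

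Related genes outside the list gave no call either. Limma put 0 of the genes of the 7 related lists under an adjusted p of 0.05 and 0 under an unadjusted p of 0.05. Of 19 measured NRF2 targets outside the members 14 were lower in shACOT12 cells (12 to 14 under other scalings). The groups did not overlap for 6 of these, namely AKR1C1, AKR1C2, AKR1C3, TKT, ME1 and PIR. Over all genes 10% were apart and lower, and 12.8% of genes at or above the median. AKR1C2 lay below the median of all genes, at a log2 value of 6.00 on both shACOT12 arrays. For the 19 targets the median log2 fold change was -0.13. The median was -0.057 with 75th percentile scaling and ranged from -0.22 to -0.039 without 1 array, the lower end without scramble replicate 1 and the upper without scramble replicate 2. EPHX1, an epoxide hydrolase, was the 1 gene apart and higher, at 0.31 (SE 0.28). AKR1C1, an aldo-keto reductase, had log2 values of 15.99 and 16.40 in shACOT12 cells, against 16.56 and 17.41 in scramble cells, a log2 fold change of -0.80 (SE 0.37; second probe -0.69). AKR1C3, a close paralog, stood at -0.58 (SE 0.33), with -0.56 and, from a dim probe, 0.40 from its other probes. Probes may not tell these related genes apart. The other genes of NADPH supply, 15 measured, were lower in 9 cases (6 to 9 under other scalings) with a median of -0.01. TKT, TALDO1 and ME1, all lower, are counted both here and among the NRF2 targets outside the members. NNT, the mitochondrial transhydrogenase, stood at -0.36 (SE 0.32), while IDH2 was higher in shACOT12 cells, at 0.28 (SE 0.29). Of the pentose phosphate pathway neighbours of PGD, TKT stood at -0.13, TALDO1 at -0.22 and PGLS at 0.04.

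The genes that make and insert selenocysteine were lower in 6 of 8 cases (5 under other scalings, 3 to 6 without 1 array), with a median of -0.11. SEPHS2, the selenophosphate synthetase that is itself a selenoprotein, had log2 values of 13.95 and 14.06 in shACOT12 cells, against 14.47 and 14.73 in scramble cells. TRNAU1AP, a protein associated with the selenocysteine tRNA, had 11.45 and 11.19 in shACOT12 cells, against 11.79 and 11.86 in scramble cells. The groups did not overlap for these 2 genes, whose log2 fold changes were -0.59 (SE 0.28) and -0.51 (SE 0.28). The other 14 selenoproteins, however, were lower in only 6 cases (4 to 8 without 1 array), with a median of 0.05. SELENOI stood at -0.35 and SELENOT at 0.27 (SE 0.28 each). Of these 14, 4 were apart and higher and 1 apart and lower, where 11.5% and 10% of all genes were. TXNRD3, below the median of all genes, was among the 4 higher ones, at 0.49 (SE 0.33). Genes of NRF2 control were lower in 4 of 10 cases (3 to 7 without 1 array), with a median of 0.03. Without 1 array that median ranged from -0.035 to 0.11, and it was -0.024 when probes were averaged per gene. NFE2L1 stood at -0.24 (SE 0.27) and BACH1, a repressor of NRF2 targets, at -0.30 (SE 0.35). Glutathione turnover and thiol exchange genes were lower in 7 of 16 cases (4 to 8 without 1 array). CHAC2, a glutathione-degrading enzyme, stood at 0.71 (SE 0.38) and MSRB3, a methionine sulfoxide reductase, at 0.64 (SE 0.31, second probe 0.46). Oxidant sources were lower in 6 of 12 cases (5 to 8 without 1 array), with the monoamine oxidases MAOA at -0.27 (SE 0.28) and MAOB at -0.25 (SE 0.31). Only 5 of these 12 genes lay at or above the median of all genes. With the dimmest 30% of genes left out, 3 of 7 were lower.

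**Figure D4:**
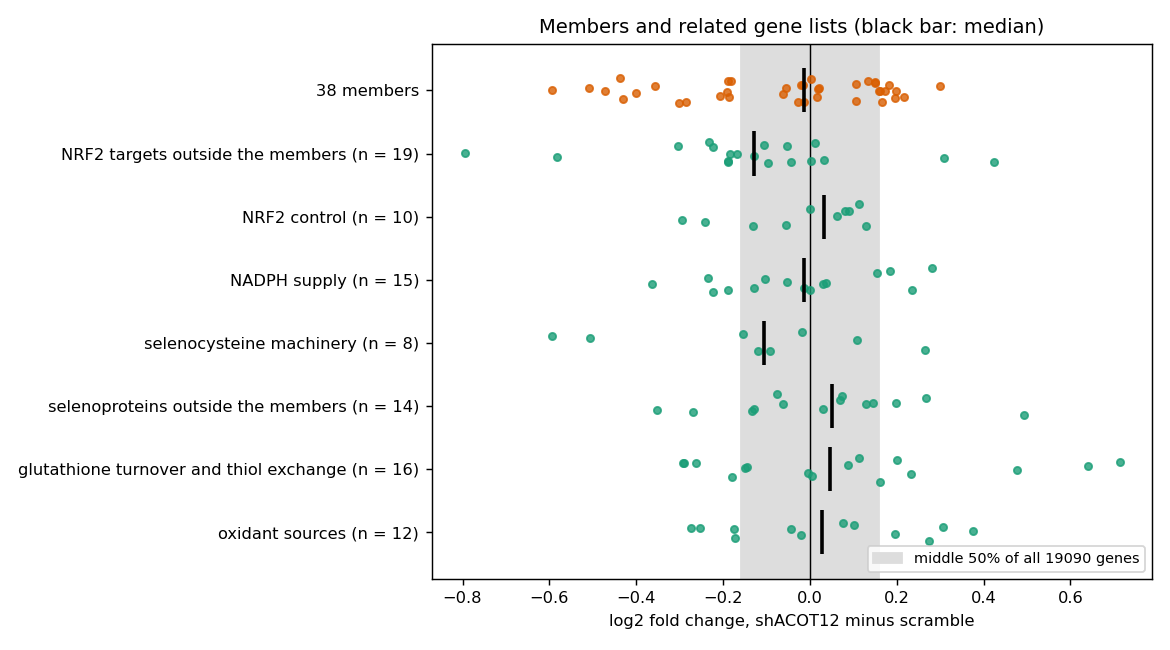
Log2 fold change, shACOT12 minus scramble, of each gene (points) in the 38 members and 7 related lists, with list medians as black bars and the middle 50% of all 19090 genes in grey; points are spread vertically only to separate them. Medians lie between -0.13 for NRF2 targets outside the members and 0.05 for other selenoproteins.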

How the data were processed

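Total RNA of Huh7 cells was amplified to aminoallyl RNA and coupled to Cy5 alone (single colour), according to the labels' protocols. The authors deposited intensities on a linear scale, 1 column for each of 4 samples, and 301 values were below 0. Scanner, background correction and normalization are not given in the sources used here.

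Intensities under 1 were set to 1, converted to log2 and, because array medians spanned 0.46 log2 units (over 0.1), quantile normalized over all 28264 probes. This forces 1 distribution on the arrays and hides a shift of most genes. Probes were named through the platform annotation (25893 with 1 symbol, 2371 unnamed here). Each gene was its probe with the highest mean, giving 19090 genes. Levels of different probes cannot be compared, and no detection flags were used.

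The test between groups was limma's (version 3.58.1, R 4.3.3, lmFit and eBayes without a block), with Benjamini-Hochberg adjustment over all genes at 0.05. An exact permutation test over 2 against 2 arrays cannot give a two-sided p below 0.333 and was not used. Arrays give no counts, so their number limits precision.

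The members and lists were chosen with earlier results of these data known. Values per array are given for NFE2L2 and KEAP1, for members with an unadjusted p under 0.05 (none), for the smallest p in each role group, and for the 10 largest absolute fold changes among members at or above the median of all genes; other members whose arrays are given were added after their values were seen. Of each related list, the 2 genes at or above that median with the smallest p were named. TKT, TALDO1, PGLS, EPHX1, AKR1C2, ME1, PIR and TXNRD3 were added after their values were seen. Alternatives changed the scaling, floor, filter, prior, probe rule and block, and left out each array.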

Additional observations from a re-analysis of the deposited data

How the results depend on the processing

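Under the 13 alternatives tried, 0 members passed limma's adjusted threshold, and the smallest adjusted p of any member was 0.928. At an unadjusted p under 0.05 limma gave 2 members with the floor at the 20th percentile (TXNRD1 and PGD), 1 with a prior following intensity (TXNRD1) and 0 to 1 without 1 array (TXNIP without scramble replicate 1). Of the 15 members given by array under the naming rule, 11 kept their direction in all alternatives; for members whose groups do not overlap, leaving out 1 array cannot turn it. For the other 4 it turned only without 1 array: the log2 fold changes then ranged from -0.085 to 0.41 for NFE2L2, from -0.059 to 0.39 for KEAP1, from -1.68 to 1.11 for TXNIP and from -0.38 to 0.69 for HMOX1. The number of lower members was 17 to 22. The median over the members was 0.0020 on the unscaled deposited values, 0.031 under scaling to the 75th percentile (0.035 over all genes) and -0.073 to -0.0050 without 1 array.

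Over all genes limma called 0 genes without scaling, under 75th percentile scaling, cyclic loess or the 20th percentile floor, 3 with a prior following intensity, 25 with the replicate block and 0 to 4 without 1 array. The labels give the groups the same replicate numbers without saying that a number marks a shared culture or day, and with 2 pairs the numbers were not taken as pairing; deviations of same-numbered arrays correlated with r = 0.18 across all genes, 0.28 across genes at or above the median and 0.37 across the members, and genes are not independent. With the replicate block 0 members passed. Without 1 array, the lone array of a group is assumed to vary like the other group. GPX8, GPX7, NQO1 and HMOX1 lay below the median of all genes, where intensity limits what can be seen.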
